A study of Mus musculus with 11 samples.

Results

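The genes described here are 10 genes of cellular iron handling in AML12, a line of mouse hepatocytes: *Fth1*, *Ftl1*, *Ncoa4*, *Trf*, *Tfrc*, *Steap3*, *Slc11a2*, *Slc40a1*, *Aco1* and *Ireb2*. They were taken by gene name from the authors' table of counts, which holds 24849 genes, and each of the 10 has 1 entry in it. The 11 libraries of polyadenylated RNA fall into 4 KO, 3 WT and 4 KI libraries. The WT group is the unedited line. In the KO group, *Txndc5*, which codes for a protein disulfide isomerase of the endoplasmic reticulum, was disrupted in a coding exon with CRISPR/Cas9 and a repair template carrying puromycin resistance, and resistant cells were kept as stable clones. The labels call this genotype a knockdown. In the KI group, TXNDC5 was overexpressed from the *Rosa26* locus, and what drives the construct is not given in the sources used here. Nothing says how many clones stand behind KO or KI, or that libraries of a group came from separate cultures, so the p-values measure only the spread between these libraries, which may be technical. An edited and selected cell line also carries whatever else differs between that line and WT, and this cannot be told apart from the edit. Libraries are named by the numbers in their labels (5, 6, 7 and 8 in KO and in KI, and 5-6, 7 and 8 in WT, where 5-6 is a single library), and values are given in that order.

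Total counts were between 29840366 and 38422243 per library, and the 10 genes together took between 0.74 and 1.2% of them. Levels are CPM, counts scaled to library size, after TMM scaling of all 11 libraries, and fold changes are from edgeR's quasi-likelihood test between the libraries of 2 groups, with p-values adjusted by Benjamini-Hochberg over all genes tested and a gene called at an adjusted p under 0.05. *Txndc5* itself stood at 10.2, 8.497, 12.9 and 9.387 CPM in KO, at 147, 138.3 and 143.2 CPM in WT and at 158.1, 179.5, 175.7 and 162.5 CPM in KI. Its counts in KI did not overlap those in WT but were not called higher (log2 fold change 0.24, standard error (SE) 0.12, adjusted p = 0.136), whereas with library totals in place of TMM they were (0.57, adjusted p = 0.00623). The sequence of the construct is not given in the sources used here, and neither is whether its transcript would be counted on *Txndc5*, so these counts do not check the KI label, which is used below as a label.

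Iron reaches most cells bound to transferrin (*Trf*), which hepatocytes make and secrete. The transferrin receptor (*Tfrc*) takes it into endosomes, where the ferrireductase *Steap3* reduces the iron and the transporter DMT1 (*Slc11a2*) passes it to the cytosol. Iron that is not used is stored in ferritin, a shell of heavy (*Fth1*) and light (*Ftl1*) chains that the cargo receptor *Ncoa4* can bring to lysosomes for release, or it leaves the cell through ferroportin (*Slc40a1*). The iron regulatory proteins IRP1 (*Aco1*) and IRP2 (*Ireb2*) bind a hairpin, the iron-responsive element, when iron is scarce. Binding in the 5′ UTR blocks translation, and binding in the 3′ UTR protects the mRNA from decay. Counts of mRNA do not measure translation.

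The iron-responsive elements found among the 10 genes are shown because they are the known link between the transcripts that carry them and both regulators. Transcripts of the GENCODE M21 annotation of GRCm38 were searched on their own strand for CNNNNNCAGTGN whose last base was not G and whose 5 bases on either side of the loop paired in all 5 positions, G with T included. In the 27-base elements below, written 5′ to 3′ as DNA, capitals mark the bulged C and the 6 bases of the loop. The elements found in the 5′ UTR were:
Fth1: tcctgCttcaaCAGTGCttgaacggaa
Ftl1: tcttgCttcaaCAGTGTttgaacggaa
Slc40a1: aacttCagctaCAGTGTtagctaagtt
The elements found in the 3′ UTR of the transferrin receptor were:
Tfrc element 1: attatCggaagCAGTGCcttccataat
Tfrc element 2: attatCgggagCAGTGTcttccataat
Tfrc element 3: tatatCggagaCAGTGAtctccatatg
Tfrc element 4: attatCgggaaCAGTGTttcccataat

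These lie in GRCm38 at chr19:9982733-9982759 on the plus strand for *Fth1*, chr7:45459780-45459806 on the minus strand for *Ftl1* and chr1:45925466-45925492 on the minus strand for *Slc40a1*. The 4 elements found in *Tfrc* lie on the plus strand at chr16:32631220-32631246, chr16:32631599-32631625, chr16:32631664-32631690 and chr16:32631711-32631737. Each element was within a single exon. Over all genes with such a region, a match was found in 0.101% of 5′ UTRs (21 of 20873 genes) and in 0.467% of 3′ UTRs (98 of 20981). A match is a description of the sequence and not a measured binding site. For the other 6 members, the lack of a match means only that no stretch of their annotated UTRs had these letters with full pairing. Elements with other letters or incomplete pairing would also have been missed in the genes with a match.

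In KO against WT, 9 of the 10 genes were called, 4 higher (*Ftl1*, *Slc11a2*, *Aco1* and *Steap3*) and 5 lower (*Fth1*, *Tfrc*, *Trf*, *Slc40a1* and *Ireb2*), whereas *Ncoa4* was not. Of all 13359 genes tested, 55.1% were called (26.7% higher and 28.4% lower). In 8 of the 10 the groups did not overlap, against 55.1% of all genes. In KI against WT, 9 of the 10 were called, 6 higher (*Tfrc*, *Slc40a1*, *Slc11a2*, *Ireb2*, *Aco1* and *Steap3*) and 3 lower (*Fth1*, *Trf* and *Ncoa4*), against 42.3% of all 13534 genes (21.2% higher and 21.0% lower), and 9 did not overlap, against 44.6%. In KO against KI, 6 were called, 3 higher in KO (*Ftl1*, *Slc11a2* and *Ncoa4*) and 3 lower (*Tfrc*, *Slc40a1* and *Ireb2*), against 54.0% of all 13269 genes (27.0% in each direction), and 5 did not overlap, against 48.8%. All 10 passed the filter on low counts in each comparison. The median log2 fold change of the 10 was -0.37, 0.43 and 0.02 in the 3 comparisons, and that of all genes tested was -0.03, -0.02 and 0.0008. With 10 members, these shares describe the list and are not tested against the background. The comparisons with WT share its 3 libraries.

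The size of several of these values depends on the scaling. A single newly assembled entry took 17.1, 13.8 and 11.3% of the counts in WT, from 4.32 to 6.44% in KO and from 4.82 to 9.12% in KI. Scaling by library totals in place of TMM moved the median log2 value over all genes to 0.38 in KO against WT and to 0.31 in KI against WT, and the part of that entry in this shift was not tested. For KO against WT, 5 of the 10 genes were then called (4 higher and 1 lower), and 72.8% of all calls were higher, against 48.4% with TMM. After subtraction of that median, the values of KO against WT under library totals were -0.69 for *Fth1*, -0.71 for *Tfrc*, -0.43 for *Ireb2* and -0.36 for *Slc40a1*.

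**Figure D1:**
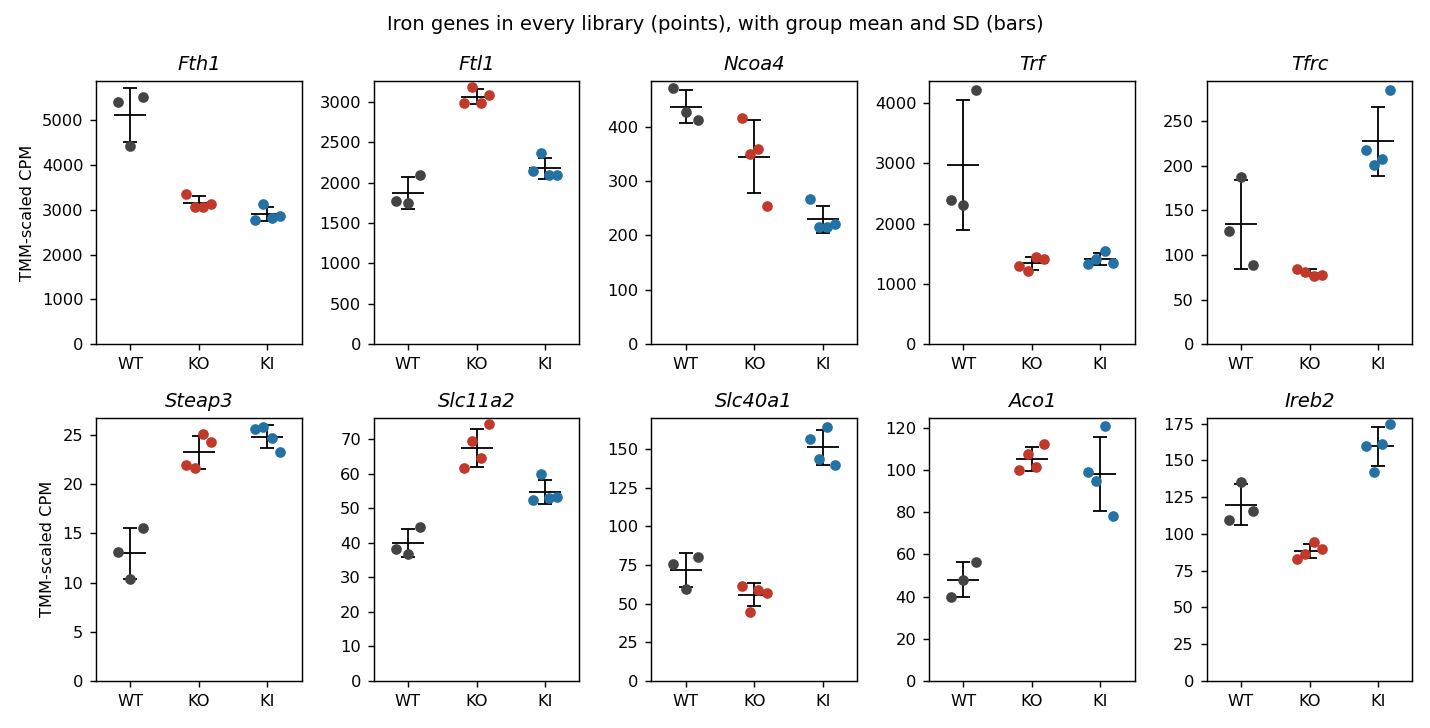
TMM-scaled CPM (vertical axes, linear from 0) of the 10 genes in the WT, KO and KI libraries. Points are libraries, long bars group means and whiskers the SD (n = 3 WT, 4 KO and 4 KI), and the panels show *Fth1* below WT in both edited lines, and *Tfrc*, *Slc40a1* and *Ireb2* highest in KI, although *Tfrc* reached 187.4 CPM in WT 7.

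The heavy and light chains of ferritin changed in opposite directions in KO cells. *Fth1*, whose chain carries the ferroxidase centre, stood at 5400, 4418 and 5523 CPM in WT, at 3359, 3067, 3052 and 3132 CPM in KO and at 2779, 3121, 2814 and 2861 CPM in KI. Every edited library was below every WT library, while KO and KI overlapped. *Fth1* was 1.64-fold lower in KO than in WT (log2 fold change -0.72, SE 0.15, adjusted p = 0.00234) and 1.77-fold lower in KI than in WT (-0.82, SE 0.16, adjusted p = 0.00162). KO and KI differed by a log2 value of 0.13 (SE 0.09), which was not called (adjusted p = 0.249). Scaled by library totals, the KO value was -0.31 and was not called (adjusted p = 0.0833).

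*Ftl1*, whose chain helps iron to mineralise inside the shell, stood at 1777, 1744 and 2094 CPM in WT, at 2991, 3184, 2987 and 3090 CPM in KO and at 2149, 2373, 2092 and 2094 CPM in KI. The KO libraries were above all the others, and KI and WT met at their edges. *Ftl1* was 1.61-fold higher in KO than in WT (log2 fold change 0.69, SE 0.15, adjusted p = 0.00229) and 1.41-fold higher in KO than in KI (0.50, SE 0.09, adjusted p = 0.000261). In KI against WT the value was 0.22 (SE 0.16) and was not called (adjusted p = 0.279), but with library totals it was 0.53 and called (adjusted p = 0.0166). The table also holds a newly assembled entry matched to ferritin light chain 1, with 290 to 928 counts per library, or 0.588 to 0.875% of those of *Ftl1*. The 7 genes of the *Fthl17* family and mitochondrial ferritin (*Ftmt*) had 0 counts in each library. How reads shared between ferritin genes and their processed copies were counted is not given in the sources used here. In GENCODE M21, exons of a gene on the opposite strand overlap 355 bases of *Ftl1*, and those of a further gene on the same strand overlap 109. Exons of a different gene on the opposite strand overlap 94 bases of *Slc11a2*. With no statement that strand was used or how overlaps were counted, reads in these stretches cannot be told apart.

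The ratio of the counts of both chains within a library does not depend on the scaling between libraries. Fth1/Ftl1 was 3.039, 2.533 and 2.637 in WT, 1.123, 0.9633, 1.022 and 1.013 in KO and 1.293, 1.315, 1.345 and 1.366 in KI. The 3 groups did not overlap in any pairing. The mean was 2.74 ± 0.27 in WT (SD, n = 3), 1.03 ± 0.067 in KO (SD, n = 4) and 1.33 ± 0.032 in KI (SD, n = 4). The ratios were chosen after the levels had been seen, and 9 exact two-sided permutation tests were run over them. The exact permutation tests of KO and of KI against WT gave p = 0.05714 each, the smallest that 4 against 3 libraries allow. KO against KI gave p = 0.02857 in the exact permutation test, the smallest that 4 against 4 allow, and all 3 were at 0.1029 after adjustment over the 9 tests. With single libraries omitted, the log2 difference lay between -1.46 and -1.33 in KO against WT, between -1.09 and -0.96 in KI against WT and between -0.41 and -0.34 in KO against KI.

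**Figure D2:**
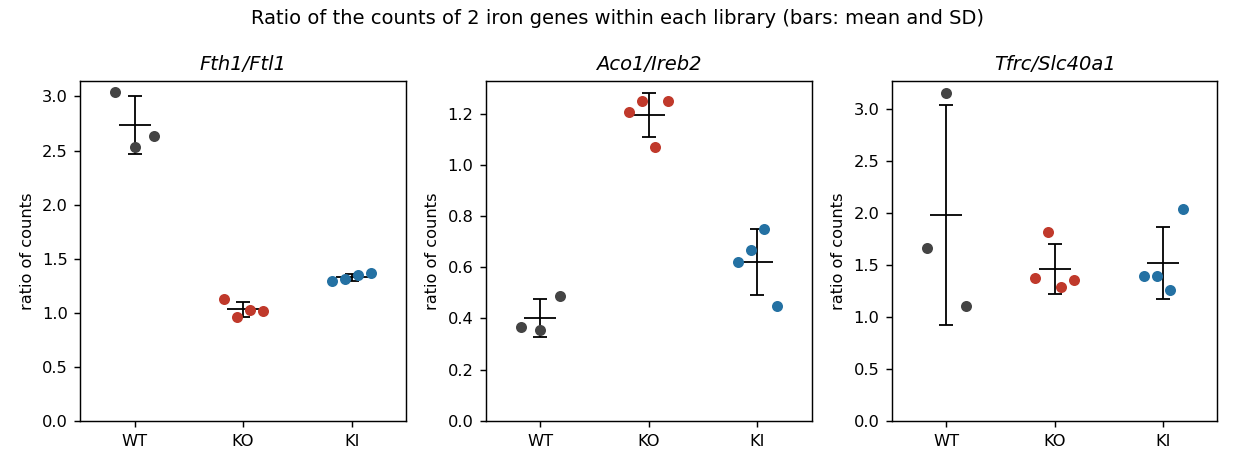
Ratio of the counts of 2 iron genes within each library (vertical axes, linear from 0) for Fth1/Ftl1, Aco1/Ireb2 and Tfrc/Slc40a1. Points are libraries, long bars group means and whiskers the SD (n = 3 WT, 4 KO and 4 KI), and Fth1/Ftl1 separates all 3 groups, at 2.74 ± 0.27 in WT, 1.03 ± 0.067 in KO and 1.33 ± 0.032 in KI, whereas Tfrc/Slc40a1 overlaps.

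*Ncoa4*, the receptor that brings ferritin to the lysosome, stood at 470.6, 426.8 and 412 CPM in WT, at 415.7, 349.8, 359.1 and 253.9 CPM in KO and at 266.6, 215.1, 215.6 and 221.8 CPM in KI. All KI libraries were below all WT libraries, and the KO libraries ran from the WT range to the KI range. It was 1.9-fold lower in KI than in WT (log2 fold change -0.93, SE 0.14, adjusted p = 0.000226). In KO against WT the value was -0.36 (SE 0.16, adjusted p = 0.0818) and was not called, although it was with DESeq2 (adjusted p = 0.0440) and without KO 5 (-0.46, adjusted p = 0.0405), and it was -0.24 without KO 8 (adjusted p = 0.213). With library totals this value was 0.05, on the other side of 0, and -0.33 after subtraction of the median of all genes under that scaling. KO was 1.5-fold above KI (0.59, SE 0.13, adjusted p = 0.00114), with an overlap made by KO 8.

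*Trf*, which codes for the plasma carrier transferrin, stood at 2388, 2318 and 4217 CPM in WT, at 1293, 1219, 1450 and 1422 CPM in KO and at 1327, 1418, 1549 and 1345 CPM in KI. All edited libraries were below all WT libraries, and WT 8 stood far above the other WT libraries. *Trf* was 2.24-fold lower in KO (log2 fold change -1.16, SE 0.21, adjusted p = 0.000842) and 2.11-fold lower in KI (-1.08, SE 0.21, adjusted p = 0.00143) than in WT. Without WT 8 these values were -0.80 and -0.74. KO and KI differed by -0.06 (SE 0.09, adjusted p = 0.599), which was not called. The annotation has a further gene model on the same strand that shares 2108 exon bases with *Trf*, and it has no entry of its own in the table. The culture medium of these cells contains added transferrin, and the counts are those of the cells' own mRNA.

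*Tfrc*, the receptor for iron-loaded transferrin, went in opposite directions in the edited lines. It stood at 126.5, 187.4 and 88.71 CPM in WT, at 84.77, 81.42, 75.99 and 77.69 CPM in KO and at 217.2, 200.8, 207.3 and 284.6 CPM in KI. The KO libraries lay within a narrow band below WT, the KI libraries all lay above it, and the WT libraries themselves spanned a 2.11-fold range. *Tfrc* was 1.71-fold lower in KO (log2 fold change -0.77, SE 0.21, adjusted p = 0.00888) and 1.69-fold higher in KI (0.75, SE 0.23, adjusted p = 0.0174) than in WT. Between KO and KI the fold was 2.84 (log2 fold change -1.50, SE 0.11, adjusted p = 2.05e-08). The values against WT rest on its wide spread: without WT 7 the KO value was -0.42 and not called (adjusted p = 0.0527), and without WT 5-6 the KI value was 0.72 and not called (adjusted p = 0.0505). With library totals the KO value was -0.33 and not called (adjusted p = 0.154). The value between KO and KI ranged from -1.56 to -1.39 over all fits with a library omitted.

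*Steap3*, the reductase of endosomal iron, stood at 13.1, 10.37 and 15.54 CPM in WT, at 22.01, 21.7, 25.08 and 24.27 CPM in KO and at 25.59, 25.8, 24.75 and 23.29 CPM in KI. All edited libraries were above all WT libraries. It was 1.76-fold higher in KO (log2 fold change 0.82, SE 0.16, adjusted p = 0.00122) and 1.91-fold higher in KI (0.93, SE 0.16, adjusted p = 0.000648) than in WT. KO and KI differed by -0.09 (SE 0.10, adjusted p = 0.455), which was not called.

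*Slc11a2*, which codes for the iron importer DMT1, stood at 38.29, 36.79 and 44.49 CPM in WT, at 61.64, 69.52, 64.53 and 74.36 CPM in KO and at 52.41, 60.09, 53.04 and 53.45 CPM in KI. The groups were in the order WT, KI, KO without overlap. It was 1.67-fold higher in KO than in WT (log2 fold change 0.74, SE 0.13, adjusted p = 0.000521), 1.37-fold higher in KI than in WT (0.46, SE 0.13, adjusted p = 0.0146) and 1.24-fold higher in KO than in KI (0.31, SE 0.09, adjusted p = 0.00984). The KI value against WT was not called without WT 7 (0.40, adjusted p = 0.0743) or without KI 6 (0.41, adjusted p = 0.0554). The counts are per gene and do not tell apart the transcripts of *Slc11a2* with and without an iron-responsive element.

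*Slc40a1*, which codes for ferroportin, the exporter of cellular iron, was highest in KI. It stood at 75.81, 59.29 and 79.82 CPM in WT, at 61.56, 44.77, 58.98 and 57.13 CPM in KO and at 156.1, 143.6, 164.2 and 139.8 CPM in KI. The KI libraries were above all the others by a wide gap, while KO 5 and WT 7 overlapped. *Slc40a1* was 2.11-fold higher in KI than in WT (log2 fold change 1.08, SE 0.14, adjusted p = 9.72e-05) and 2.71-fold lower in KO than in KI (-1.44, SE 0.10, adjusted p = 2.47e-08). In KO against WT the value was -0.38 (SE 0.14, adjusted p = 0.0422). That call was lost without KO 6 (-0.29), KO 7 (-0.41), KO 8 (-0.40), WT 5-6 (-0.32) or WT 8 (-0.27), and without the filter on low counts (adjusted p = 0.0556), and with library totals the value was 0.02.

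*Tfrc* and *Slc40a1*, the importer and the exporter, thus shared their order of groups, and their ratio within a library showed no separation. Tfrc/Slc40a1 was 1.668, 3.161 and 1.111 in WT, 1.377, 1.819, 1.288 and 1.36 in KO and 1.392, 1.398, 1.262 and 2.036 in KI. The exact permutation tests gave p = 0.5714 for KO and for KI against WT and p = 0.6571 for KO against KI. Leaving out WT 7 took the log2 difference of KO against WT from -0.32 to 0.09.

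*Aco1* codes for IRP1, which carries an iron-sulfur cluster and acts as an aconitase when iron is ample. It stood at 39.89, 47.92 and 56.25 CPM in WT, at 100.1, 107.6, 101.2 and 112.3 CPM in KO and at 99.16, 94.95, 120.7 and 77.98 CPM in KI. All edited libraries were above all WT libraries, and the KI libraries were spread on both sides of the KO libraries. *Aco1* was 2.16-fold higher in KO (log2 fold change 1.11, SE 0.14, adjusted p = 7.04e-05) and 2.04-fold higher in KI (1.03, SE 0.17, adjusted p = 0.000553) than in WT. KO and KI differed by 0.10 (SE 0.11, adjusted p = 0.467), which was not called.

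*Ireb2*, which codes for IRP2, the regulator that is degraded when iron is ample, stood at 109.3, 135.4 and 115.3 CPM in WT, at 83.06, 86.1, 94.59 and 89.75 CPM in KO and at 160, 142.3, 161.5 and 174.5 CPM in KI. The groups were in the order KO, WT, KI without overlap, which is also the order of the group means of *Tfrc* and *Slc40a1*. *Ireb2* was 1.38-fold lower in KO (log2 fold change -0.46, SE 0.12, adjusted p = 0.00768) and 1.33-fold higher in KI (0.41, SE 0.14, adjusted p = 0.0313) than in WT, and 1.8-fold lower in KO than in KI (-0.85, SE 0.09, adjusted p = 1.12e-06). The KO value was -0.05 with library totals (adjusted p = 0.788). The KI value was not called without WT 5-6 (0.35), KI 5 (0.41), KI 7 (0.40) or KI 8 (0.37).

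The ratio of the counts of both regulators, Aco1/Ireb2, was 0.3649, 0.354 and 0.4877 in WT, 1.206, 1.249, 1.069 and 1.251 in KO and 0.6199, 0.6671, 0.7477 and 0.4469 in KI. KO stood above both other groups, whereas KI 8 fell within the WT range. The exact permutation test gave p = 0.05714 for KO against WT, p = 0.1143 for KI against WT and p = 0.02857 for KO against KI, and 0.1029, 0.1714 and 0.1029 after adjustment over the 9 tests.

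**Figure D3:**
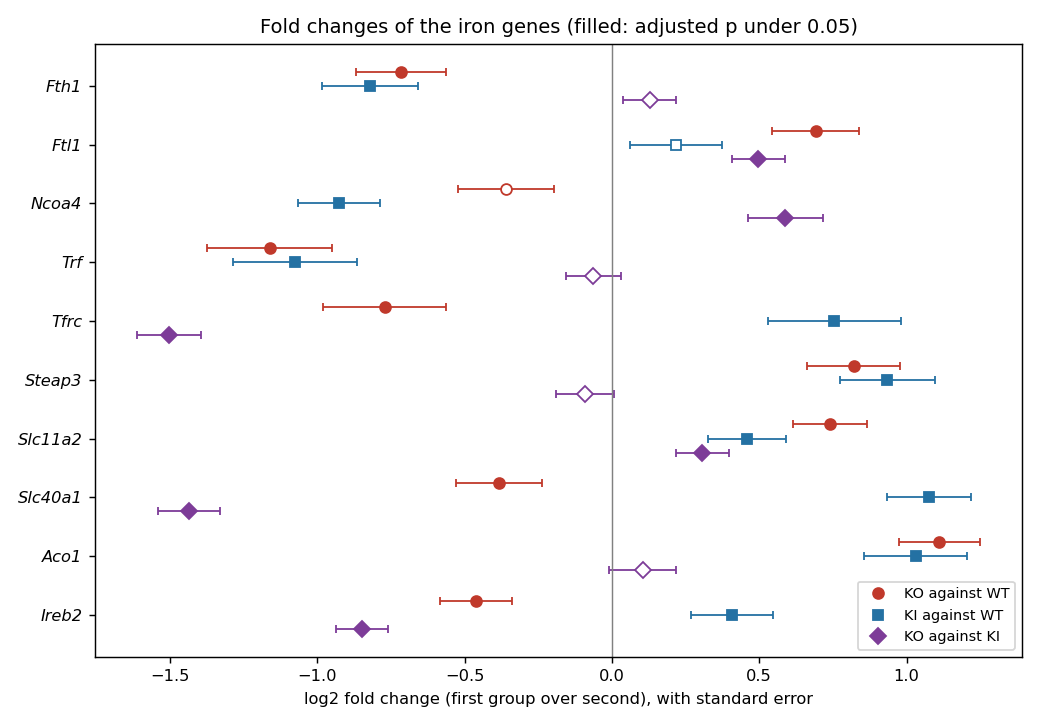
Log2 fold changes of the 10 genes (horizontal axis, whiskers: standard error) in KO against WT, KI against WT and KO against KI, with filled symbols for an adjusted p under 0.05. *Tfrc*, *Slc40a1* and *Ireb2* lie on opposite sides of 0 in the comparisons of KO and of KI with WT, at -0.77 and 0.75, -0.38 and 1.08, and -0.46 and 0.41.

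Between genes, levels were compared per kilobase of 1 reference transcript of GENCODE M21, as CPM per kb. In WT the order of the mean levels was *Fth1* (5505), *Ftl1* (1934), *Trf* (1157), *Ncoa4* (130.6), *Tfrc* (27.4), *Slc40a1* (21.3), *Ireb2* (20.8), *Slc11a2* (13.2), *Aco1* (12.5) and *Steap3* (4.44). The libraries of *Tfrc*, *Slc40a1* and *Ireb2* overlapped on this scale, as did those of *Slc11a2* and *Aco1*. In KO, *Fth1* (3393) and *Ftl1* (3164) came close to each other and *Aco1* (27.5) stood above *Tfrc* (16.4), *Slc40a1* (16.5) and *Ireb2* (15.3). In KI, *Tfrc* (46.5) and *Slc40a1* (44.8) followed *Ncoa4* (68.7).

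Genes whose level followed 3 of the members most closely were found by Pearson's r of log2 CPM over the 11 libraries among 13947 genes. For *Fth1* they were *Chrdl1* (r = 0.981), *Bcam* (0.981) and *Creld1* (0.978). For *Tfrc* they were *Prcd* (0.978), *Gm5784* (0.978) and *Zfp266* (0.977), and for *Slc40a1* they were *Arpp19* (0.984), a newly assembled entry (0.979) and *Arhgap6* (0.978). These are descriptions over libraries that fall into 3 groups, which any gene that differs between the groups shares.

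Most of the other genes of iron uptake, reduction and release that were tested were called against WT, more of them lower than higher. Of 21 genes listed, 15 were tested. Of these, 14 were called in KO against WT (against 55.1% of all genes), 3 higher and 11 lower, with a median log2 fold change of -0.56. In KI against WT, 12 were called (against 42.3%), 4 higher and 8 lower, with a median of -0.56, and in KO against KI 10 were called (against 54.0%), 5 in each direction, with a median of 0.10. The most opposed of the named genes was *Scara5*, a receptor that takes up ferritin. It stood at 38.11, 32.35 and 48.74 CPM in WT, at 232.4, 219.7, 243.7 and 247.6 CPM in KO and at 3.132, 3.418, 8.127 and 4.226 CPM in KI. The groups were far apart without overlap. *Scara5* was 5.86-fold higher in KO (log2 fold change 2.55, SE 0.15, adjusted p = 5.3e-07) and 8.38-fold lower in KI (-3.07, SE 0.29, adjusted p = 7.68e-06) than in WT.

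*Tfr2*, the second transferrin receptor and an iron sensor of hepatocytes, stood at 62.4, 61.92 and 60.1 CPM in WT, at 17.46, 12.67, 17.37 and 16.13 CPM in KO and at 18.18, 17.01, 20.62 and 20 CPM in KI. The edited lines overlapped each other and were both far below WT. It was 3.92-fold lower in KO and 3.25-fold lower in KI (adjusted p = 1.47e-06 and 1.89e-06). *Cp*, which codes for ceruloplasmin, the ferroxidase that prepares exported iron for transferrin, fell from 2491 ± 447 CPM in WT (SD, n = 3) to 689.7 ± 60.9 in KO (SD, n = 4) and 1449 ± 112 in KI (SD, n = 4), with adjusted p = 5.01e-06 and 0.0025. *Steap4*, another metalloreductase, was 3.89-fold lower in KO and 4.76-fold lower in KI than in WT. *Slc39a14*, which imports iron that is not bound to transferrin, was lower in both (log2 fold changes -0.75 and -1.32, adjusted p = 0.00213 and 3.08e-05). *Steap2* and the lysosomal channel *Mcoln1*, by contrast, were lower in KO (-0.56 and -0.47) and higher in KI (0.60 and 0.66), and the ubiquitin ligase *Herc2*, which targets NCOA4, was higher in KO (1.41, adjusted p = 0.000671) but was not called in KI (0.30, adjusted p = 0.293).

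Among regulators of the iron regulatory proteins and other transcripts for which an iron-responsive element is known, 12 of 14 genes were tested against WT. In KO 6 of them were called, 1 higher and 5 lower, and in KI 4, 2 in each direction, beside 55.1 and 42.3% of all genes called. *Fbxl5*, the iron-sensing subunit of the ligase that marks IRP2 for degradation, was lower in KO (334.4 ± 76.4 CPM in WT, SD, n = 3, and 162.6 ± 15 in KO, SD, n = 4, log2 fold change -1.06, adjusted p = 0.000256) and in KI (218.5 ± 14.1 CPM, SD, n = 4, log2 fold change -0.61, adjusted p = 0.0089). *Skp1*, a subunit of the same ligase, was lower in KO (-0.92, adjusted p = 0.00034) and not called in KI (-0.10, adjusted p = 0.613). *Zfp36*, an RNA-binding protein that shortens the life of *Tfrc* mRNA under iron shortage, was 2.7-fold higher in KO (1.43, adjusted p = 3.65e-05) and was not called in KI (-0.03, adjusted p = 0.931).

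The hepcidin axis is the route by which liver cells read body iron and set ferroportin protein. *Hamp*, which codes for hepcidin, had 0 counts in each KO and WT library and at most 1 count in a KI library, and a count of 0 allows up to 3 counts, which is at most 0.134 TMM-scaled CPM (in WT 5-6). Of the axis, 7 of 15 genes tested were called in KO against WT (4 higher and 3 lower, against 55.1% of all genes) and 8 of 14 in KI against WT (3 higher and 5 lower, against 42.3%). *Neo1*, which codes for neogenin, a receptor of hemojuvelin, was higher in KO (log2 fold change 0.96, adjusted p = 0.00126) and in KI (1.30, adjusted p = 0.000156). *Hfe*, which codes for a partner of the transferrin receptors, and *Id1*, a target of BMP signalling, were lower in KI (-1.28 and -1.42, adjusted p = 0.000271 and 1.21e-05) and were not called in KO (-0.22 and -0.09). The BMP receptor gene *Bmpr1a* was lower in both (-0.81 and -0.84). *Smad6*, of the same list, was also called lower in KO (-0.76, adjusted p = 0.0052) and in KI (-0.73, adjusted p = 0.0103).

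Iron-sulfur cluster assembly is a main use of cytosolic and mitochondrial iron, and HSPA9, a protein the study is about, is its mitochondrial HSP70 chaperone. Here 15 of 30 genes tested were called in KO against WT, 6 higher and 9 lower, and in KI against WT 15 of 30, 7 higher and 8 lower, with medians of -0.10 and -0.06. These shares are near the 55.1 and 42.3% of all genes called. *Hspa9* itself was not called in either (0.16 and 0.02, adjusted p = 0.307 and 0.913), but was called higher in KO with library totals (0.56) and without WT 8 (0.28). Its co-chaperone gene *Hscb* was lower in KO (-1.07, adjusted p = 8.49e-05) and KI (-1.02, adjusted p = 0.00018), and so was the late-acting factor *Isca2* (-0.95 and -1.53). *Nubp1*, a scaffold of cytosolic cluster assembly, was higher in both (1.50 and 0.69).

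Of the genes of heme synthesis, transport and breakdown, 14 of 23 tested were called in KO against WT, 10 higher and 4 lower, and 11 of 23 in KI against WT, 4 higher and 7 lower, with medians of 0.14 and -0.19. The shares over all genes, 55.1 and 42.3%, are close to these. In KO against KI, 17 of 23 were called, 13 higher in KO and 4 lower, against 54.0% of all genes. Their median there was 0.42, and that of all genes was 0.0008. *Hmox1*, the heme oxygenase that frees iron from heme, stood at 76.75, 80.27 and 114.4 CPM in WT, at 12.53, 13.71, 13.65 and 13.67 CPM in KO and at 51.31, 47.3, 53.41 and 42.9 CPM in KI. The 3 groups did not overlap. It was 6.85-fold lower in KO (log2 fold change -2.78, SE 0.16, adjusted p = 3.14e-07) and 1.86-fold lower in KI (-0.89, SE 0.16, adjusted p = 0.000783) than in WT. *Alas1*, the first enzyme of heme synthesis in the liver, was higher in KO (0.79, adjusted p = 0.00173) and KI (1.11, adjusted p = 0.000258). *Cpox*, a later enzyme, was 2.8-fold higher in KO (1.48, adjusted p = 1.13e-05) and not called in KI (0.23, adjusted p = 0.265), and the heme exporter *Flvcr1* was higher in both (1.32 and 0.56). *Hp*, which codes for haptoglobin, the carrier of free hemoglobin, was 2.47-fold lower in KO and 10.1-fold lower in KI than in WT. Because WT is shared, the KO and KI values of each gene are given side by side and their likeness was not tested.

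**Figure D4:**
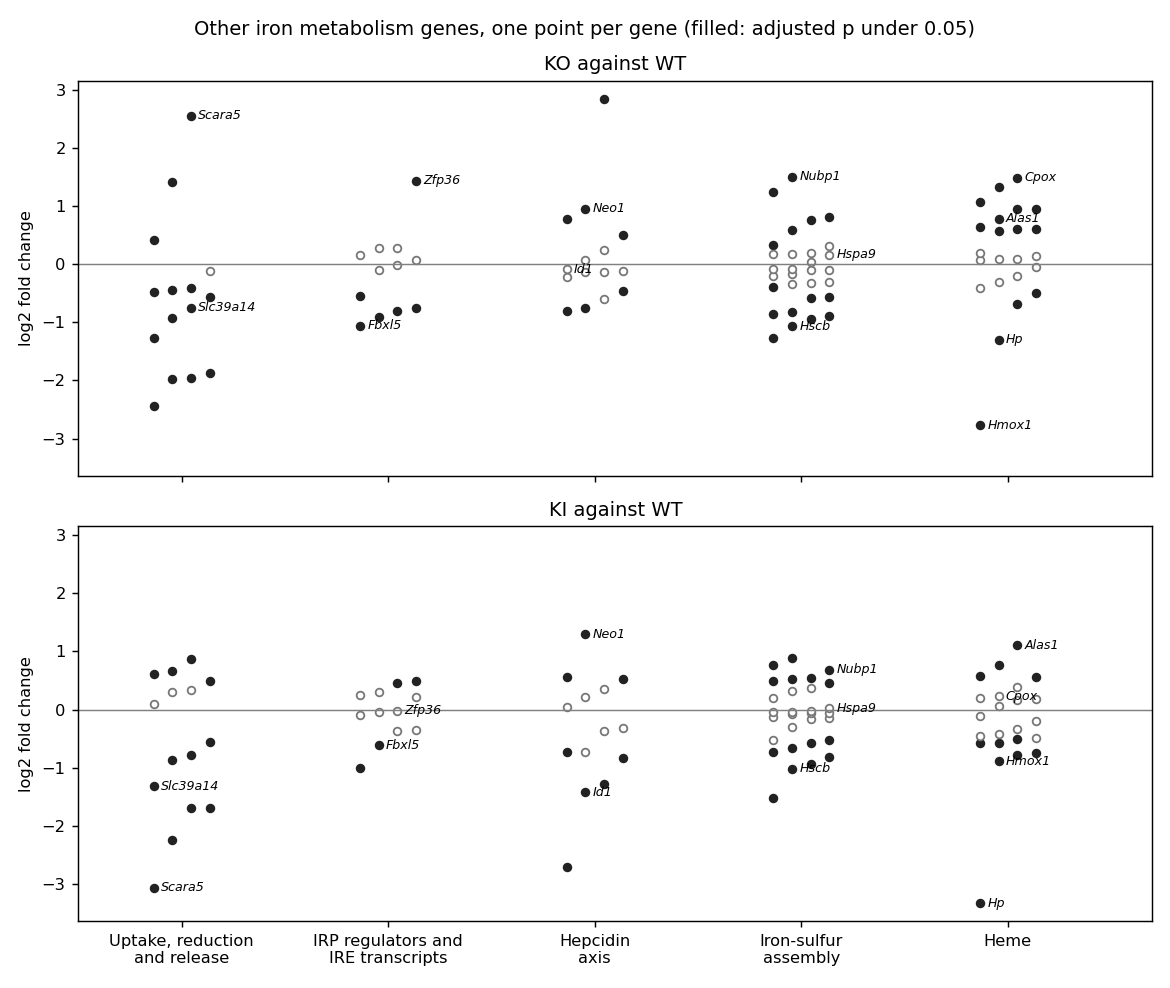
Log2 fold changes (vertical axes) of the tested genes of the 5 other iron lists in KO against WT (upper panel) and KI against WT (lower panel), each point a gene, filled for an adjusted p under 0.05, with some genes named. *Scara5* is at 2.55 in KO and -3.07 in KI, and *Hmox1* at -2.78 and -0.89.

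Hepatocyte and bile duct markers differed between the groups as well. Of 12 hepatocyte markers, 10, 9 and 8 had a mean above 1 CPM in KO, WT and KI. Albumin (*Alb*) stood at a mean of 4114 CPM in KO, 512.5 in WT and 245.7 in KI, and *Hnf4a* at 275.2, 106.5 and 132.5 CPM, while *Asgr1* was at or near 0 in all groups and *Cps1* stood at 2.88 CPM in KO and near 0 in WT and KI. In the other direction, *Ttr* stood at 438 CPM in KO, 826.1 in WT and 596.5 in KI, and *Serpina1a* at 0.594, 8.04 and 11.5 CPM. The summed level of the list was from 5104 to 6923 CPM in WT, from 7265 to 8769 in KI and at least 8442 in KO, where *Alb* was its most abundant gene, in place of *Krt8* in WT and KI. Without *Alb* the sums were from 4853 to 5675 CPM in KO and from 4679 to 6184 in WT, which overlap, and from 7106 to 8510 in KI. The 6 bile duct markers summed to 3048 to 4416 CPM in WT, 1373 to 1530 in KO and 2643 to 3128 in KI, with *Spp1* the most abundant in WT (2520) and KI (1958), *Krt19* in KO (1097), and *Epcam* at 0 in every library. In KO against WT, 10 of the 12 hepatocyte markers were called (7 higher and 3 lower) and 5 of 5 bile duct markers tested (1 higher and 4 lower), against 55.1% of all genes. In KI against WT, these counts were 5 of 11 (4 higher and 1 lower) and 1 of 5 (lower), against 42.3%. The part of this difference in the values of the iron genes, of which *Trf*, *Cp*, *Hp* and *Tfr2* are genes of hepatocytes, was not tested, and in bulk RNA fewer cells of a state and less RNA per cell cannot be told apart. The 10 macrophage markers, cells rich in ferroportin and ferritin, summed to at most 9.56 CPM, with *Cd68* the most abundant (6.05 CPM in WT) and *Adgre1*, *Clec4f*, *Marco* and *Tyrobp* at 0 in all groups. Their sums were 1.95 to 2.69 CPM in KO, 6.73 to 9.56 in WT and 3.33 to 6.66 in KI. *Cd68* was called lower than in WT in KO (log2 fold change -2.03, adjusted p = 0.000158) and in KI (-1.59, adjusted p = 0.00103). *Ptprc* was called lower in KO (-3.93, adjusted p = 0.0038) but not in KI (-0.22), and *Lyz2* was called in neither. The lists of fibroblast, erythroid and endothelial markers summed to at most 1.69, 3.61 and 0.425 CPM.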

How the data were processed

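AML12 RNA was sequenced at BGI. The authors deposited raw counts per gene of 11 libraries, without normalization. The submitters' processing notes name HISAT2, TopHat2, Bowtie2 and StringTie, and the genome build and counting tool are not given in the sources used here. Of 26472 table lines, 10 broken ones were left out, and counts were summed by gene name. FPKM columns, whose decimal points were lost, and the authors' own fold changes and p-values were not used.

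Tests used edgeR 4.0.16 in R 4.3.3 (quasi-likelihood test, robust, TMM, edgeR's low-count filter, Benjamini-Hochberg adjustment, threshold 0.05), fitted on the 2 groups compared. A prior count of 2 entered only the mean log2 CPM by which genes were named. The SE of each log2 fold change was taken as its absolute size divided by the square root of the test's F statistic. Alternatives used DESeq2 1.42.0, limma 3.58.1, other scalings, no filter, a replicate block and leaving out each library. The procedure was tested on simulated data. Permutation tests used scipy 1.17.1, and figures matplotlib 3.10.9. Precision is limited by the spread between libraries, since each of the 10 genes had at least 257 counts in each library. Intervals for counts of 0 cover counting error only.

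The members and lists were chosen with earlier results of these data known. Named genes are the 10 members, *Txndc5*, *Hspa9*, and from each other list the 2 largest rises and falls among called genes with a mean log2 CPM of at least 2 in each comparison with WT, with *Hmox1*, *Hamp*, *Tfr2*, *Slc39a14*, *Cp*, *Fbxl5* and *Alas1* whatever their values. Not all of them are printed.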

Additional observations from a re-analysis of the deposited data

Results flagged for a closer look

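Among 99 groups of 4 libraries looked at, 7 had a library far from the others by Dixon's ratio of its gap to the range of the group, where chance gives about 1 in 20, or 5.0. For *Slc11a2*, KI 6 stood at 60.09 CPM and the other KI libraries at 52.41 to 53.45 (ratio 0.864). For *Ncoa4*, KI 5 stood at 266.6 CPM and the others at 215.1 to 221.8 (0.871). For *Hmox1*, KO 5 stood at 12.53 CPM and the others at 13.65 to 13.71 (0.951). For *Alas1*, KO 7 stood at 35.31 CPM and the others at 38.21 to 38.44 (0.925). For *Acvr1*, a BMP receptor gene, KO 8 stood at 22.62 CPM and the others at 17.19 to 18.03 (0.846). For *Hscb*, KI 6 stood at 13.15 CPM and the others at 11.58 to 11.81 (0.851). For the ratio Tfrc/Slc40a1, KO 6 stood at 1.819 and the others at 1.288 to 1.377 (0.833). The WT group has 3 libraries and was not looked at in this way, although WT 7 for *Tfrc* and WT 8 for *Trf* stood apart.

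The newly assembled entry matched to ferritin light chain 1 lies outside the 10 genes. Its mean in KO was 21.62 CPM (17.86, 25.7, 21.57 and 21.35) and above the 15.55, 11.7 and 12.32 CPM of WT, as for *Ftl1*.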

How the results depend on the processing

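Over all alternatives, 490 fold changes of the 10 genes were computed, of which 466 kept their direction and side of the threshold, 17 lost their call with the same sign, 4 gained it and 3 changed sign. Of these 3, *Slc40a1* in KO against WT also lost its call. Library totals in place of TMM gave 5 iron genes called in KO against WT, with a value of 0.019 for *Slc40a1* and 0.053 for *Ncoa4* there. The share of higher calls over all genes then rose from 50.2 to 76.3% in KI against WT and from 50 to 56.1% in KO against KI. The cause was not tested. When libraries were left out in turn, from 8 to 10, from 7 to 9 and 6 of the 10 genes were called in KO against WT, KI against WT and KO against KI, and from 6161 to 8449, 4276 to 6969 and 6515 to 7230 of all genes. The genes of the other iron lists called ranged from 45 to 62, 39 to 66 and 55 to 62. Signs turned for *Hspa9* in KI against WT (-0.044 to 0.12), *Aco1* in KO against KI (-0.0016 to 0.22) and Tfrc/Slc40a1, whose log2 difference ranged from -0.67 to 0.088, -0.62 to 0.14 and -0.16 to 0.10. These ratios and their alternatives were chosen after seeing the data.

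Libraries with the same replicate number did not all vary together. The correlations of their deviations across genes were 0.439 (KO 5 with WT 5-6), -0.107 (KO 6), 0.071 (KO 7) and 0.503 (KO 8) between KO and WT. In the other comparisons they ran from -0.383 (KI 8 with WT 8) to 0.17 (KI 6 with WT 5-6). The numbers were therefore not used as pairs, and not every library correlated best with the one of its own number. With the replicate block, 8183, 4891 and 6453 of all genes and 10, 9 and 6 of the iron genes were called in KO against WT, KI against WT and KO against KI. The gene added in KO against WT was *Ncoa4* (-0.42, adjusted p = 0.00607). No other call of the 10 genes changed with the block.

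Only 3 WT libraries stand behind both comparisons with WT, and their spread limits the values of *Tfrc* and *Trf*. The counts reflect mRNA and not iron or protein.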
